A study of Mus musculus with 59 samples.

Results

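The prefrontal cortex of wild-type mouse pups that received vehicle was described at postnatal day 25, as the baseline of a study of genotype and drug. The 10 libraries were those labelled wild-type (WT) for Myt1l and vehicle, 5 from females and 5 from males, all on the C57BL/6J strain, and they were taken from 59 libraries in all. They were chosen by their labels of genotype, drug, sex and number, and not by any measured value. The other pups of the series were labelled heterozygous (HT) for Myt1l, which encodes a transcription factor of neurons, or received fluoxetine or lithium. Drug or vehicle reached the pups from postnatal day 3 to 24, a period of 3 weeks, through the milk of the dam. HT vehicle pups, 5 of each sex, were compared with them, and the remaining groups serve only to show whether a value recurs. The labels do not tie pups to litters. The p-values below judge group differences against the spread between pups and treat each pup as independent. If a group holds littermates, they may be too small.

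The prefrontal cortex is a layered sheet in which glutamatergic pyramidal neurons are joined by several classes of GABAergic interneurons and by astrocytes, oligodendrocytes, microglia and vessels. Fast transmission there runs through AMPA, NMDA and GABA-A receptors, whose subunits are exchanged as the cortex matures, as when GluN2A is added to the GluN2B receptors of early life. Myelination is under way in the rodent forebrain at this age. A bulk library sums all of these cells, so fewer cells of a type and less RNA per cell cannot be told apart.

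Values are normalized counts, read counts that the authors divided by 1 size factor per library, and a gene's share of the counts depends on its length, so levels of different genes are compared per length, as normalized counts per kilobase of the longest annotated transcript scaled to the same total in every library (below, level per kb). The 10 libraries held 26056201 to 34162299 reads each once the size factor was undone. The table held 18088 genes, of which 16506 averaged at least 10 normalized counts and 12452 at least 100 in these 10 pups. No 2 libraries agreed within counting noise, the closest pair differing by a chi-square of 5.58 per degree of freedom. Myt1l, to which the genotype label refers, lay between 6736 and 7612 normalized counts in the WT vehicle pups (mean 7078 ± 255, SD, n = 10). In the HT vehicle pups it lay between 6189 and 8802 (mean 8030 ± 938). HT female 3 and male 3, which stood apart in striatal genes (below), read 6189 and 6578. The other HT pups read 7669 to 8802, above every WT pup. The groups overlapped through these HT libraries, and the RNA level of Myt1l was not used as a check of that label.

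Before any other result, 3 of the 10 libraries stood apart from the rest in genes of the olfactory bulb, the region that borders the frontal cortex. Cdhr1, a cadherin of bulb mitral and tufted cells (chromosome 14, 37077857 to 37098347, GRCm38), read 1747, 1735 and 2043 normalized counts in female 1, male 3 and male 5 and between 62.1 and 277 in the other 7 pups. Doc2g followed it with 1154, 1086 and 1359 against 85.8 to 153. Th, the rate-limiting enzyme of dopamine synthesis, present in periglomerular interneurons of the bulb, read 440, 433 and 553 against 35.9 to 83.4. Eomes and Tbx21, transcription factors of bulb projection neurons, reached 218, 235 and 328 and 113, 80.5 and 104 in the same 3 pups, and stayed at 8.78 and 3.5 or less in all others. Omp, which marks mature olfactory sensory neurons, was low throughout (4.75 to 34.2). The 3 high pups were singled out by these genes, so their separation in Cdhr1, Doc2g, Th, Eomes and Tbx21 is a description only. They included pups of both sexes. How much the bulb difference contributed to any other value was not tested beyond giving results without these 3 libraries.

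Among markers of other tissues, those of the choroid plexus and ependyma were low, with a list median of 0.717 per kb. The thalamus list had a median of 8.56 per kb, where the median gene stood at 11.5. All 7 of its measured members averaged at least 100 normalized counts. Of 8 measured genes of the choroid plexus and ependyma, 5 averaged at least 10 normalized counts, and Ttr, the transthyretin of the choroid plexus, ranged from 1.10 to 47.3 with its highest value in male 2. Slc17a7, the vesicular glutamate transporter of cortical neurons, stood at 1605 ± 84.3 per kb, whereas Slc17a6, that of thalamic relay neurons, stood at 14.7 ± 2.46. The cortical transcription factors Neurod6, Tbr1 and Neurod2 stood at 122, 81.5 and 63.2 per kb, above the median gene at 11.5. Each of these 3 genes and Slc17a7 was present in all 10 libraries, the 3 high in bulb genes included.

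**Figure D1:**
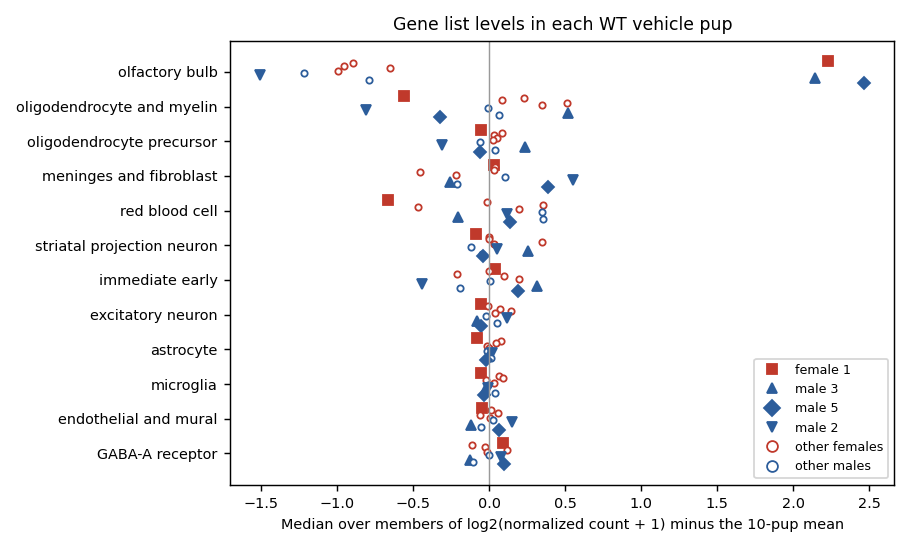
Level of 12 gene lists in each of the 10 WT vehicle pups, as the median over list members of log2(normalized count + 1) minus that gene's mean over the 10 pups, with female pups in red and male pups in blue. Female 1, male 3 and male 5 lie at 2.23, 2.14 and 2.47 for the olfactory bulb list against -0.65 or lower in the others, and male 2 is lowest for myelin and immediate early genes.

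A small number of genes made up much of each library, counted here without regard to length. The 20 genes with the highest mean held 11.3% of all counts, the first 100 held 21.1%, and 911 genes held 50%. Of the 20, 9 were encoded by the mitochondrial genome, 3 were nuclear pseudogenes of mitochondrial genes, and 8 were other genes. mt-Co1, a core subunit of cytochrome c oxidase (mitochondrial genome, 5328 to 6872), was highest with 850812 ± 53817 normalized counts (SD, n = 10), or 2.87% of all counts, and ranged from 768060 in male 3 to 939378 in male 5. The 15 mitochondrially encoded genes measured took 7.69 ± 0.513% of the counts, from 7.07 to 8.39%. The 3 pseudogenes, Gm28437, Gm10925 and Gm28661, took 0.778, 0.564 and 0.431% besides. Reads cannot be divided with certainty between such copies and the mitochondrial genes (below). The 7.69% and the split into 9 and 3 genes therefore depend on how these reads were assigned.

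Of the 8 other genes, the most counts belonged to Meg3, an imprinted long noncoding RNA of neurons (chromosome 12, 109541001 to 109571726), with 128893 ± 12922 normalized counts. Slc1a2, the main glutamate transporter of astrocytes, had 95714 ± 5332, and Camk2a, the kinase of excitatory synapses, with 95504 ± 9863. Kif5a (a kinesin of axonal transport), Snap25 (a fusion protein of synaptic vesicles), Gapdh (glycolysis) and Cpe (carboxypeptidase E of the secretory pathway) lay between 68562 and 60176. Of these 20 genes, 19 were also among the 20 highest in HT vehicle, 20 in each lithium group, 19 in WT fluoxetine and 18 in HT fluoxetine.

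Per kb the order changed, because Meg3 and Slc1a2 are long. Outside the mitochondrial genes and their copies, Calm2 was highest with 3616 ± 186 per kb (rank 19), and Cpe, Nrgn and Calm3 stood at 2617, 2282 and 2088. Calm2 and Calm3 both encode calmodulin, the calcium sensor, and their order depends on the length used, since with the median transcript length Calm3 was above Calm2. Nrgn encodes neurogranin, a postsynaptic protein that binds calmodulin. Camk2a stood at 1769, Syp (synaptophysin) at 1440, Glul (glutamine synthetase of astrocytes) at 1407 and Vamp2 (synaptobrevin) at 1396 per kb.

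**Figure D2:**
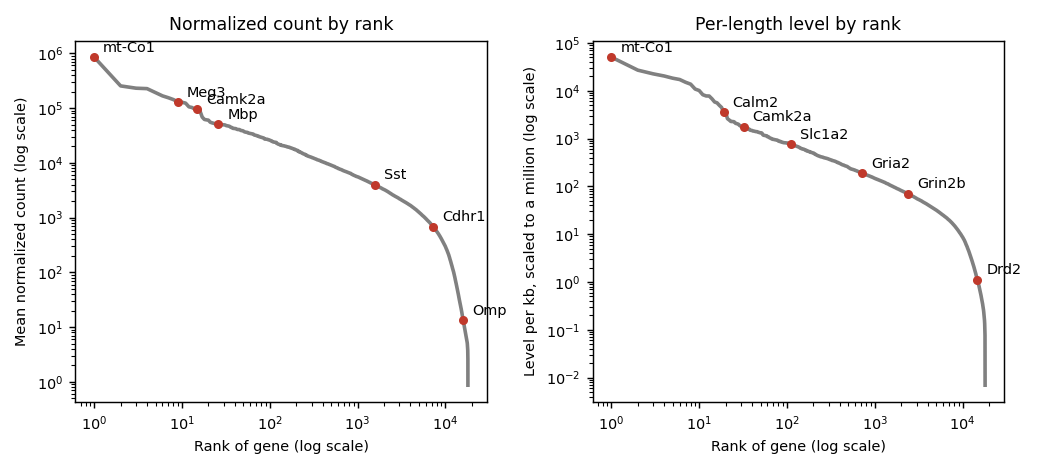
Mean normalized count (left) and level per kb (right) of each gene against its rank over the 10 WT vehicle pups, both axes on log scales, with named genes marked. Normalized counts start at 850812 for mt-Co1, and Camk2a stands at rank 15 by count and 32 per kb.

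Several of the highest values belonged to pairs of genes that share sequence, for which reads cannot be assigned with certainty. A stretch of chromosome 1 near 24613189 holds a nuclear copy of part of the mitochondrial genome. There the transcript of Gm28437 (24613189 to 24613971, minus strand) was identical to mt-Co3 over 783 of 783 aligned bases, Gm10925 (24613974 to 24614651) to mt-Atp6 over 678 of 678, Gm28661 (24614885 to 24615565) to mt-Co2 over 681 of 681, and Gm10222 (24612407 to 24612700) to mt-Nd4l over 294 of 294. Gm29216 and Gm28438 each differed from mt-Co1 and mt-Nd3 at 1 base, over 483 and 345 aligned bases. The first 60 bases of an identical pair and the 60 bases that hold the single difference of the other pairs are shown because they leave reads little or nothing to tell the members apart by, with the base that differs in capitals, from the GENCODE transcripts.
Gm28437: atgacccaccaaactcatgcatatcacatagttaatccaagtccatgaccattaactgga
mt-Co3: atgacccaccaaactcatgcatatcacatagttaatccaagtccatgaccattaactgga
Gm28438: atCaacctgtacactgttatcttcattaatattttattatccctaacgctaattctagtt
mt-Nd3: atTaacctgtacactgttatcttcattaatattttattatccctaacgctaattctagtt
Gm29216: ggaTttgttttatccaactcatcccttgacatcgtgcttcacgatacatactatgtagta
mt-Co1: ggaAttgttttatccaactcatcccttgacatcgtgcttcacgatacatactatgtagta

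In most of these pairs the reads were divided differently between pups while their sum was steadier. For mt-Nd4l and Gm10222, female 4 had 35881 normalized counts on mt-Nd4l and 132 on Gm10222, whereas the other 9 pups had 6553 to 11902 on mt-Nd4l and 10138 to 22830 on Gm10222. The SD of log2 values over the 10 pups was 0.703 for mt-Nd4l and 2.20 for Gm10222, but 0.265 for their sum. For mt-Co3 it was 0.380 alone and 0.0902 for the sum with Gm28437, of which the pseudogene held 84.3% (73.2 to 89.3% between pups). Gm10925 held 76.3% of its sum with mt-Atp6 and Gm28661 55.1% of its sum with mt-Co2. For Gm28438 and mt-Nd3 the sum was about as variable as Gm28438 alone (0.265 and 0.281), and for mt-Co1 its sum with Gm29216 differed little from mt-Co1 alone (0.0800 and 0.0911). If sums are taken, mt-Co3, mt-Co2 and mt-Atp6 with their copies ranked 2, 4 and 5 among all genes. Fam205a2 and Fam205a3 on chromosome 4 were identical over 3927 of 3927 bases and behaved in the same way: Fam205a3 was at 0 in male 4, Fam205a2 was at 0 in female 2, and the log2 SD was 2.91 and 2.50 alone and 0.598 for the sum. Single values of these genes are therefore not read as levels.

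**Figure D3:**
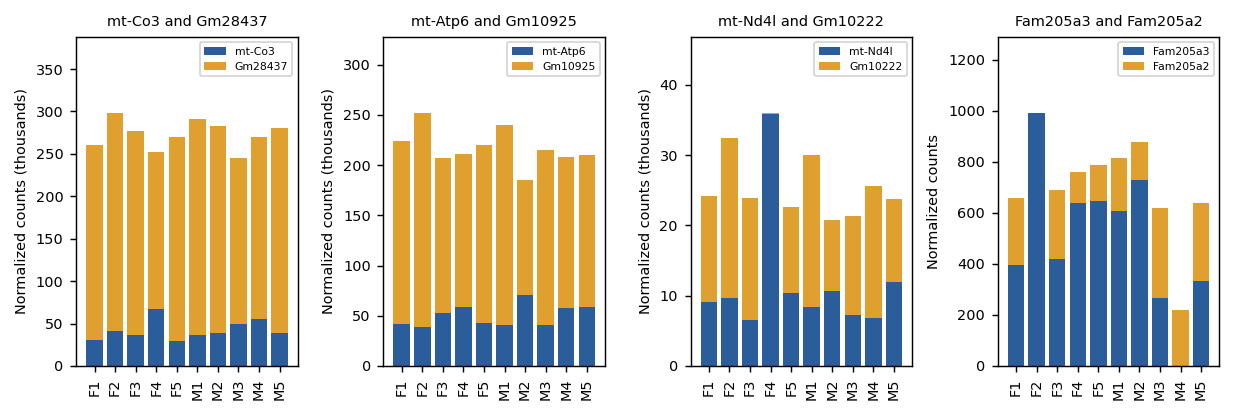
Normalized counts in each WT vehicle pup (F1 to F5 female, M1 to M5 male) for 4 pairs of genes with identical aligned sequence, stacked so that the bar height is the pair's sum. In female 4 nearly all of the mt-Nd4l pair is on mt-Nd4l, and male 4 and female 2 each show 1 member of the Fam205a pair alone.

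Markers of the main cell types were all detected and differed widely in level. Among excitatory neuron genes, 17 of 17 measured averaged at least 100 normalized counts, from Nrgn at 2282 per kb down to Foxp2, a deep-layer transcription factor, at 3.51. Cux2 (upper layers) stood at 37.3, Fezf2 (deep layers) at 30.1 and Tle4 (layer 6) at 24.7 per kb. Among interneuron genes, the neuropeptides Cck, Sst and Npy were highest at 834, 507 and 419 per kb. Gad1, which makes GABA, stood at 196 and its partner enzyme Gad2 at 73.5. Pvalb (parvalbumin, of fast-spiking basket cells) and Vip (of disinhibitory interneurons) stood at 53.9 and 52.7 per kb, and were well below Sst in each pup.

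Several abundant astrocyte genes were even between pups. Glul ranged only from 40401 to 44166 normalized counts, and Slc1a3, Aldoc and Ndrg2 from 19090 to 21774, 16641 to 19941 and 12100 to 13648. The median of the list's within-sex SD (the SD of log2 values around the sex means) was 1.11 times the trend for genes of the same level, against 0.996 over all genes, so the list as a whole was not more even than other genes of its level. Microglial genes stood at 0.775 times the trend. Csf1r, the receptor that microglia need to survive, ranged from 2506 to 3049 normalized counts and Cx3cr1, their fractalkine receptor, from 1277 to 1506. Genes of endothelial and mural cells stood at 1.08 times the trend, with Cldn5, a tight junction protein of vessels, between 955 and 1154.

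Myelin genes differed between pups far more. Mbp, the myelin basic protein gene on chromosome 18, read 34067, 57644, 53318, 65366 and 60519 normalized counts in females 1 to 5 and 49142, 27180, 71957, 50558 and 37617 in males 1 to 5. Male 2, female 1 and male 5 were low and male 3 and female 4 high, and the sexes overlapped. Mobp, another myelin protein gene, ranged from 6712 in male 2 to 17902 in male 3. Male 2 was lowest in 14 of the 17 genes of the list and male 3 highest in 9, and the median SD was 4.75 times the trend. Enpp2, also listed there, did the opposite, with its highest value, 7305, in male 2 and its lowest, 6226, in male 3. Precursor genes moved less: Pdgfra, the receptor that marks oligodendrocyte precursors, ranged from 1819 to 2065, and the list's median SD was 2.21 times the trend. Because 1 of the 3 pups high in bulb genes was also highest in myelin genes and the other 2 were low, the bulb and myelin differences did not run together across pups.

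Meningeal genes showed a further pattern. Ptgds, the prostaglandin D synthase of the meninges, also made by oligodendrocytes, read 27377 in male 2 and 23925 in male 5 and 13826 in female 4. Col1a1 (fibrillar collagen) read 930 and 846 in the same 2 males and 386 in female 4. All 13 measured genes of the list were above their mean in male 2 and 12 in male 5, and 0 in female 4. Globin genes were lowest in females 1 and 4, where Hbb-bs read 2391 and 2736 against 3286 to 4896 in the others. Genes of striatal projection neurons had a median of 8.69 per kb, where the median gene stood at 11.5, and Drd2, the dopamine receptor of indirect pathway neurons, was at 79.0 normalized counts in female 4, 55.5 in male 3 and 13.4 to 30.4 in the remaining 8 pups.

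Immediate early genes, which are switched on within minutes by neuronal activity, also varied together. Fos read 571 to 1253 normalized counts, Arc 2899 to 5490, Npas4 362 to 909 and Btg2 256 to 809, and Egr1 was steadier at 5999 to 8320. Male 2 was lowest in 10 of the 16 genes and male 3 highest in 5, and the list's median SD was 3.03 times the trend. Bdnf (722 in male 3 to 1000 in male 2) and Nptx2 did not follow that order. Many such genes carry cAMP response elements in their promoters. Of 12 of these genes with a promoter in the RefSeq table (250 bases before to 50 after the start), 2 held the full element TGACGTCA on either strand and 10 the shorter TGACG that it contains, against 1.88% and 21.0% of 27025 promoters. These matches describe letters only and were not tested. Parts of 3 promoters are shown because their genes were among those that varied together, with the match in capitals (GRCm38.p6, gene strand): Dusp1 (a phosphatase that ends kinase signals) at chr17:26508568-26508655, Btg2 (an antiproliferative factor) at chr1:134079274-134079361 and Fos at chr12:85473784-85473868.
Dusp1: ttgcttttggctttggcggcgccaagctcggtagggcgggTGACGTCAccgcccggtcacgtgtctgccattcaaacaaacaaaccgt
Btg2: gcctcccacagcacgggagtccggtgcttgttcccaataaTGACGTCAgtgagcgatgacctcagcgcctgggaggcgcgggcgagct
Fos: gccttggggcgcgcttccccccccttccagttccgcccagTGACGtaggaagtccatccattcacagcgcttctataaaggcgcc

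Receptor and channel families were described by their make-up within each library. A share or ratio within a library does not depend on its size factor, and those below are per kb. Among the 4 AMPA receptor genes, Gria2 (whose edited subunit blocks calcium) gave 31.8 ± 1.29% of the summed level, Gria3 31.6 ± 1.40%, Gria1 27.0 ± 1.60% and Gria4 9.61 ± 0.665%. The first 3 changed order with the length used: with all exons merged Gria1 led at 34.9%, and with the median transcript length Gria2 led at 52.7%. Gria4 was lowest with each length. The ratio of Gria4 to Gria2 was between 0.271 and 0.331 in the 10 pups.

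Among the GluN2 genes of the NMDA receptor, Grin2b gave 50.3 ± 1.56%, Grin2a 26.4 ± 1.52%, Grin2c 14.5 to 21.0% and Grin2d 5.24 ± 0.836%. Grin2a to Grin2b (chromosome 16, 9567898 to 9995560, and chromosome 6, 135713233 to 136173511) had the lowest log2 SD of 36 ratios computed, although 6 ratios were below it without the 3 bulb-high libraries. It read 0.539, 0.541, 0.535, 0.505 and 0.493 in females 1 to 5 and 0.535, 0.561, 0.481, 0.525 and 0.539 in males 1 to 5, a log2 SD of 0.0692. Grin2b was thus above Grin2a in all 10 pups, and its share was 52.9% with merged exons and 93.6% with the median transcript length. Grin1, the obligatory subunit, stood at 314 per kb, and Grin3a, which lowers calcium entry, at 21.8, with a ratio of 0.0701 ± 0.00975.

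In the GABA-A receptor, the alpha genes reported here stood in the order Gabra3 (126 ± 9.42 per kb), Gabra4 (94.0), Gabra5 (62.8 ± 6.39) and Gabra2 (33.9 ± 7.10; SD, n = 10). Gabra3 ranged from 112 to 141 and Gabra4 from 77.5 to 114 per kb between pups, so these neighbours overlapped. With the median transcript length Gabra2 was above Gabra5 (4.47 and 3.56% of the alpha genes). Gabrb2 stood at 91.1 ± 10.2 and Gabrb1 at 30.4 ± 2.76 per kb. Gabrd, of receptors outside synapses, stood at 59.2 ± 4.52, Gabrg1 at 19.6 ± 3.06 and Gabrg3 at 13.9 ± 0.426 per kb, but with the median transcript length Gabrg3 was above Gabrg1 and close to Gabrd (20.6, 7.86 and 21.8% of the gamma and delta genes). Gabbr1 exceeded its obligate partner Gabbr2 in the metabotropic GABA-B receptor with a ratio of 1.81 ± 0.111.

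Among the sodium channels of central neurons, Scn2a gave 44.4 ± 0.891%, Scn8a (the main channel of mature axon initial segments) 32.4 ± 1.41%, Scn1a (the main channel of fast-spiking interneurons) 17.2 ± 0.795% and Scn3a, prominent before birth, 6.09 ± 0.736%. With the median transcript length Scn8a led at 59.2%, so the order of Scn2a and Scn8a depends on it. Cacna1a (P/Q-type calcium channel) to Cacna1b (N-type) was 1.51 ± 0.0748, but 1.07 with merged exons and 4.24 with the median transcript length. Hcn2, a pacemaker channel, stood at 71.1 ± 10.2 per kb with its lowest value at 48.7. The chloride exporter Slc12a5 exceeded the importer Slc12a2 in each pup, with ratios of 6.77 to 13.3, and the ratio of Slc17a7 to Slc17a6 was 83.1 to 186. With the median transcript length their means were 41.1 and 52.2, outside these ranges, and with merged exons 12.7 and 84.4.

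Over the 36 ratios, the log2 SD between pups had a median of 0.149 and a highest value of 0.510, for Drd1 to Drd2, and 19 ratios were below 0.15. In 33 ratios all 10 pups lay on the same side of 1. The exceptions were Gria3 to Gria2, Cacna1c to Cacna1d and Kcnc1 to Kcnc2, with 5, 7 and 3 pups above 1. Females and males were compared by the exact two-sided permutation test of the mean log2 ratio, whose smallest p with 5 against 5 is 0.00794. No ratio passed an adjusted p of 0.05 over the 36 (0 of 36, 0%), and 1 had an unadjusted p below it: Gria4 to Gria2, higher in males, with an exact permutation p of 0.0317 and an adjusted p of 0.902.

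**Figure D4:**
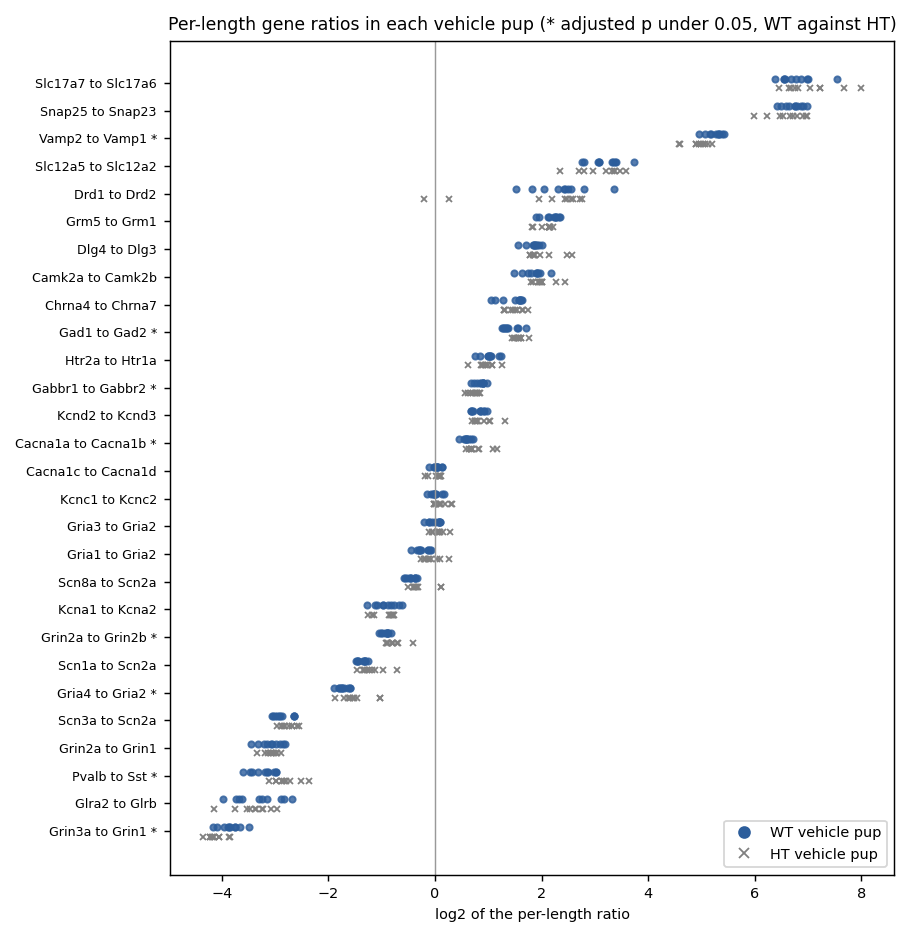
Of the 36 per-length ratios, 28 are shown in each of the 10 WT vehicle pups (blue points) and 10 HT vehicle pups (grey crosses), on a log2 axis where 0 means equal levels. Stars mark the 8 shown ratios with an adjusted p under 0.05 between the genotypes, and the 2 lowest crosses of Drd1 to Drd2 are HT female 3 and HT male 3.

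Against HT vehicle pups, 11 of the 36 ratios passed (30.6%) by the exact permutation test with genotype permuted within sex, and 15 had an unadjusted p below 0.05. Some ratios share a gene and are not independent. In the HT group 2 libraries, female 3 and male 3, stood apart in striatal genes, with Drd2 at 304 and 234 normalized counts against 20.2 to 35.6 in the other 8. Bulb genes were also high in some HT pups, which were kept. List levels relative to the WT vehicle mean were 1.02 to 1.83 in female 4, male 1, male 4 and male 5, and 0.61 in female 1. That mean is raised by the 3 bulb-high WT pups, and the other WT pups lay at -0.65 or lower. Bulb-high libraries were left out of WT alone, so those comparisons are not balanced for bulb genes. Without the 2 striatal-high HT libraries 3 ratios passed, without the 3 bulb-high WT libraries 6, and without all 5 also 6. In all 3 of these reduced comparisons 2 ratios passed, and Pvalb to Sst was the 1 reported here. Leaving out single libraries gave 3 to 15, with 3 without WT female 4, 6 without WT male 1 and 7 without HT male 5.

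The ratio of Pvalb to Sst (chromosome 15, 78191114 to 78206400, and chromosome 16, 23889573 to 23890958) was lower in WT. It read 0.126, 0.0898, 0.0929, 0.109 and 0.100 in WT females 1 to 5 and 0.123, 0.114, 0.0828, 0.113 and 0.127 in WT males 1 to 5, and 0.116, 0.126, 0.195, 0.136 and 0.140 in HT females and 0.126, 0.138, 0.175, 0.145 and 0.151 in HT males. The groups overlapped, and all 10 HT pups lay above the WT mean of 0.108. The log2 difference, WT minus HT, was -0.43 (exact permutation adjusted p = 0.00680), and the exact permutation adjusted p was 0.00765 without the 3 bulb-high WT libraries, 0.0385 without the 2 striatal-high HT libraries and 0.0147 without all 5. Pvalb had 572 ± 66.1 normalized counts in WT and 785 ± 214 in HT, where the 2 striatal-high libraries read 1250 and 1104 and the other 8 lay between 596 and 784, while Sst averaged 3978 ± 555 and 3967 ± 502 (SD, n = 10 each).

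Pvalb to Sst also passed when any 1 of the 20 libraries was left out, as did Vamp2 to Vamp1, which was 38.0 ± 3.81 in WT and 30.8 in HT (exact permutation adjusted p = 0.0121, and 0.0784 without the 3 bulb-high libraries). Grin2a to Grin2b was lower in WT, 0.525 against 0.584 (exact permutation adjusted p = 0.0227), but with the 2 striatal-high HT libraries left out the HT mean was 0.560 and the adjusted p 0.0612. Gad1 to Gad2 was 2.65 in WT and 2.97 in HT (exact permutation adjusted p = 0.0340), and its highest WT values, 2.90, 2.92 and 3.26, were those of the 3 bulb-high pups. Without these the WT mean was 2.49 and the exact permutation adjusted p 0.00765. The exact permutation adjusted p was 0.0612 without the 2 striatal-high HT libraries and 0.0147 without all 5. HT pups high in bulb genes were kept. Of these, female 4, male 4 and male 5 held the highest HT values, 3.07, 3.08 and 3.37, and male 1 read 2.95. Leaving out bulb-high pups from WT alone is therefore not a comparison balanced for bulb genes.

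Spread between pups was measured as the within-sex SD of log2 values. Over the 12452 genes with a mean of at least 100 its median was 0.115, where counting alone gave a median of 0.0485. An SD above 0.5 was seen in 87 genes (0.699%) and above 1 in 18. Without the 3 bulb-high libraries 49 genes passed 0.5. The order of genes by spread was shared with the other 49 libraries of the series, with a Spearman correlation across genes of 0.630, given as a description because genes are not replicates. Of the 125 genes most variable for their level, 123 were also in the most variable 10% there.

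Relative to the trend, the pseudogene Gm10222 had the highest SD among the genes named here (25.2 times), followed by Fam205a3 (22.9), both described above with their identical copies. Predicted genes and pseudogenes are left out of what follows, in which Cdhr1, Doc2g and Th of the bulb list were high, at 16.3, 12.8 and 8.99 times. Calb2 (calretinin, of bulb and cortical interneurons) read 2007, 1875 and 2353 in the 3 bulb-high pups and 306 to 491 in the others, and Frmd7, Pbx3, Dlx1, Syt6 and Dcx followed the same 3 pups. Dcx, the microtubule protein of migrating neuroblasts, read 4865, 3718 and 4771 against 1926 to 2634. Another pattern was seen in Ndst4, a heparan sulfate modifying enzyme, and Abi3bp, an extracellular matrix protein. Ndst4 read 186 in male 2, 546 in male 5 and 637 in female 1, and 1085 to 1959 in the other 7. Abi3bp read 597, 1093 and 1438 in the same pups and 2113 to 3412 in the others, so both were low in the 3 pups low in myelin genes. Htr2c, a serotonin receptor gene on the X chromosome, shared that order, with 810, 886 and 1069 against 1340 to 1916. Nr4a2, a deep-layer nuclear receptor that is also activity-induced, read 136 in male 2 and 882 and 836 in female 4 and male 3.

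The least variable genes for their level had diverse known roles. Snx12, a sorting nexin (X chromosome, 101097786 to 101222563), read 1107, 1100, 1088, 1102 and 1088 in females and 1051, 1071, 1063, 1073 and 1061 in males, an SD of 0.0116 where counting alone gave 0.0442. Plekhb2 (endosomal) ranged from 6437 to 6722, Neo1 (neogenin, a guidance receptor) from 3207 to 3435, Sars (seryl-tRNA synthetase) from 3803 to 4016 and Ppcdc (coenzyme A synthesis) from 262 to 290. In 439 genes (3.53%) the SD was below that of counting alone, a group to which Snx12, Neo1 and Ppcdc belonged and Plekhb2 did not. These genes were picked for their low SD in these pups, so that SD overstates how steady they are. In the other 49 libraries the within-group SD was 0.0709 for Snx12, 0.0615 for Plekhb2, 0.0694 for Neo1, 0.0793 for Sars and 0.130 for Ppcdc. For their level these lay at percentiles 3.28, 0.61, 2.67, 5.93 and 14.6 of spread there.

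**Figure D5:**
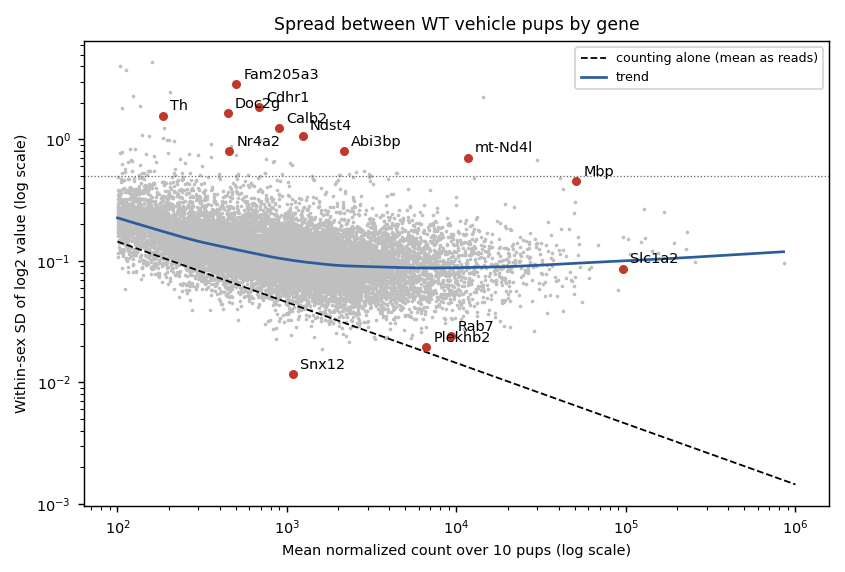
Within-sex SD of log2 values against mean normalized count for the 12452 genes with a mean of at least 100, on log axes, with the lowess trend in blue and the SD that counting alone would give as a dashed line. Cdhr1, Doc2g, Calb2 and Ndst4 lie above 1, Mbp lies at 0.454, and Snx12 lies below the counting line.

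Sex was the 1 labelled difference within the group. By limma, 10 of 16506 genes passed an adjusted p of 0.05 (0.0606%), 5 higher in females and 5 lower (0.0303% each), and 442 had an unadjusted p below 0.05. Females and males did not overlap in 75 genes (0.454%). Ddx3y, Kdm5d, Uty and Eif2s3y, Y-linked partners of X genes, and Gm29650 were present in all males and at 0 in all females, except 1.10 normalized counts of Eif2s3y in female 4. Ddx3y read 1671 to 1779 in males. Xist, the RNA that silences an X chromosome, read 17107 to 23940 in females and 1.09 to 2.63 in males. These genes passed the level filter through 1 sex alone, and no fold is given for them.

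Besides Xist, 3 X-linked genes passed, and all 3 are known to escape X inactivation. Eif2s3x, a translation factor, read 4476 to 4872 normalized counts in females and 2915 to 3350 in males (log2 difference, female minus male, 0.58 ± 0.0472 SE). Kdm5c, a histone demethylase, read 1961 to 2065 against 1558 to 1653 (0.31 ± 0.0416, limma adjusted p = 0.00446), and Kdm6a, another, 959 to 1170 against 685 to 838 (0.44 ± 0.0686, limma adjusted p = 0.0245). Without the 3 bulb-high libraries the limma adjusted p was 0.0534 for Kdm5c and 0.121 for Kdm6a, and 8 genes passed in all. Ddx3x, a further escape gene, did not overlap between the sexes (7656 to 9433 and 6294 to 7561) but missed the threshold, at a limma adjusted p of 0.107.

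The single autosomal gene was Gstm1, a glutathione S-transferase on chromosome 3 (108012255 to 108017973). It read 3299, 3289, 3306, 3024 and 3408 normalized counts in females 1 to 5 and 2231, 2327, 2484, 2313 and 2323 in males 1 to 5. The sexes were well apart, with a log2 difference of 0.48 ± 0.0471 SE (limma adjusted p = 0.000126), and 0.51 without the 3 bulb-high libraries (limma adjusted p = 0.00201). In the other 5 combinations of genotype and drug the difference had the same sign in 5 of 5, from 0.06 to 0.21, and passed in 0. Fitted together with all 59 libraries, the WT vehicle difference had a limma adjusted p of 0.999937. The difference between WT and HT vehicle pups in this sex effect was 0.27 on the log2 scale and did not pass (limma adjusted p = 0.999899). No gene passed that interaction test (0 of 16528, 0%), with 270 at an unadjusted p below 0.05. Gstm1 belongs to a family of similar genes, among which reads can be divided.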

How the data were processed

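RNA was taken from prefrontal cortex and sequenced after a stranded poly(A) library kit, per the labels' protocols. The deposited signal is gene counts that the authors divided by 1 size factor per library. The submitters' processing notes name Salmon 0.11.2, DESeq2 1.19.11, R 3.6.0 and GRCm38; the annotation and strand setting are not given in the sources used here. The values were whole multiples of 1 read per library (tolerance 0.01), so reads were recovered for the count-based alternatives. Gene lengths and positions came from GENCODE M21, which matched 18077 of 18088 genes, and promoters from RefSeq. Sexes were compared with limma 3.58.1 (trended, robust) on log2(normalized count + 1) over the 10 WT vehicle libraries, for genes with a mean of at least 10, with Benjamini-Hochberg adjustment at 0.05. The 36 subunit ratios were compared by exact two-sided permutation tests (252 splits by sex, 63504 rearrangements of genotype within sex). Spread was the within-sex SD of log2 values for genes with a mean of at least 100, against a lowess trend (fraction 0.3). On simulated data the limma test recovered 68.9% of 1.5-fold and 87.7% of 2-fold changes, with 4 and 7 false calls. Whether it recovers as many in the 10 WT vehicle libraries was not tested. Alternatives used edgeR 4.0.16, DESeq2 1.42.0, other filters, pseudocounts and lengths, a replicate block, and fewer libraries.

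Genes were named by rank of level, of level per kb and of spread for their level, by passing the sex test, and as members of the lists. The members, lists and ratios were chosen with earlier results of these data known. Myt1l, Ddx3x, Htr2c, Enpp2 and the genes picked from lists as examples were chosen after their values were seen, as were the comparisons without the 3 bulb-high WT and 2 striatal-high HT libraries. Listed genes with no row in the table were not analysed here, and some listed genes and ratios enter the counts but are not reported here.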

Additional observations from a re-analysis of the deposited data

Results flagged for a closer look

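Of 274 groups of 5 pups of 1 sex examined for a single pup far from the other 4, 26 of those reported here had one. Chance flags about 1 in 20 of groups chosen without regard to spread. Many of the flagged genes were named for their spread, and several flags repeat the bulb difference of female 1. The 26 are therefore not set against that rate. Highest and lowest below refer to pups of the same sex. Female 1 was the highest female in Cdhr1 (1747 normalized counts), Doc2g (1154), Calb2 (2007), Th (440), Frmd7 (271), Pbx3 (899), Dlx1 (1669), Dcx (4865) and Brd1 (1631), and the lowest in Pdxdc1 (2272). Its olfactory bulb list level was 2.23. In the males male 3 and male 5 were both high in bulb genes, so neither stood alone.

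Female 4 stood apart in mt-Nd4l (35881), a value that is not a level by itself since its identical copy Gm10222 had 132 there, in Eif2s3y (1.10) and in the striatal list level (0.35), and female 2 in mt-Atp8 (24099). Male 3 was the highest male in Nr4a2 (836). Among per-length ratios, among females Gabbr1 to Gabbr2 was lowest in female 3 (1.66), Htr2a to Htr1a in female 5 (1.69) and Chrna4 to Chrna7 in female 1 (2.18). Among males Kcna1 to Kcna2 and Kcnc1 to Kcnc2 were highest in male 3 (0.649 and 1.12) and Dlg4 to Dlg3 lowest there (3.29). Slc17a7 to Slc17a6 was highest in male 2 (186). The NMDA and monoamine receptor list levels were lowest among males in male 5 (-0.0481 and -0.13), and the choroid plexus list level in male 4 (-0.43).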

How the results depend on the processing

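Genes with a spread above 0.5 numbered 87, and 155 with the filter at a mean of 50, 50 at 200, 49 without the 3 bulb-high libraries and 73 to 103 without single pups. Ratios that passed between WT and HT vehicle numbered 11, and 6 without the 3 bulb-high WT libraries, 3 without the 2 striatal-high HT libraries, 6 without all 5, 3 to 15 without single libraries and 11 with the replicate block. Genes passing by sex numbered 10, and 8 with the replicate block, under which Kdm5c and Kdm6a missed the threshold (limma adjusted p = 0.169 and 0.141), 14 by DESeq2, and 9 to 11 without single pups. Replicate numbers did not pair the pups (correlations of -0.140 to 0.0764). On the log2 scale a ratio changed side of 0 for Gria1 to Gria2 (0.22), Cacna1c to Cacna1d (-0.27) and Kcnc1 to Kcnc2 (0.21) with merged exon lengths, for Scn8a to Scn2a (0.78), Kcnc1 to Kcnc2 (0.97) and Kcnd2 to Kcnd3 (-0.62) with median transcript lengths, and for Gria3 to Gria2 (0.0484) without the 3 libraries. Gstm1 missed the threshold when all 59 libraries were fitted as group means, which leaves its difference as it was by construction. Apart from the lengths used and the libraries left out, the causes were not tested. Genes with few reads are limited by counting.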
